A study of Mus musculus with 80 samples.

Results

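Cold mechanical dissociation of mouse brain was set against brain tissue that was never dissociated, by comparing the RNA of both preparations before any cells or ribosomes were selected. The comparison used every raw-count column titled Dounce-Input and every Tissue-Input column of the cell preparation table, which came to 8 of the 80 samples of the series, 4 mice in each group, and 16000 genes. All 8 mice were Cx3cr1(Jung)-cre/Ert2+;NuTRAP+, which pairs a tamoxifen-inducible recombinase made in microglia and other cells with the fractalkine receptor with the NuTRAP reporter, which tags ribosomes and nuclei once recombined. Both groups had received tamoxifen at 100 mg/kg at about 3 months of age. The mice of the Dounce-Input group were 179, 180, 181 and 182, and those of the Tissue-Input group 946, 947, 948 and 949, so no animal gave a library to both. The age at collection was not given in the labels.

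For Dounce-Input, brain was ground in ice-cold buffer without enzyme or inhibitors, strained and cleared of myelin and undissociated pieces on a density gradient, and the resulting suspension was lysed without sorting. For Tissue-Input, brain was homogenised directly in lysis buffer. Input is the RNA of the cleared lysate from all cell types, taken before the pull-down of tagged ribosomes (TRAP), so the tag limits neither group to microglia. Another Input group of 4 mice, Cell-Input (-) Inhibitors, was made by warm enzymatic digestion without transcription and translation inhibitors and is used below as a reference. Its mice carried the same alleles and had received tamoxifen at the same dose and age.

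A brain suspension is meant to hold single cells, while a tissue lysate also holds what lies in axons, dendrites and the fine processes of glia. Whether the cells of Dounce-Input were whole cannot be told from these counts. Microglia, the resident macrophages of the brain, respond to injury within minutes by transcribing immediate-early genes and cytokines. Neurons keep many mRNAs far from the cell body and are often torn when tissue is broken up. Long non-coding RNAs such as Meg3, Neat1 and Malat1 stay in the nucleus, whereas ribosomal protein and respiratory chain mRNAs are abundant in the cytoplasm.

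The Dounce-Input libraries held 5107648 to 9751793 expected counts and the Tissue-Input libraries 8617630 to 10411982, and 15361 to 15715 genes had at least 1 count in each Dounce-Input library. Pairs of Dounce-Input libraries correlated with a Pearson's r of 0.967 to 0.984 on the log2 scale of CPM, counts scaled to a common library total, and pairs of Tissue-Input libraries with 0.989 to 0.992, both across genes within pairs of libraries. Hemoglobin transcripts made up 2.31% to 2.79% of the counts in Dounce-Input, 0.0258% to 0.0428% in Tissue-Input and 0.863% to 1.96% in Cell-Input (-) Inhibitors. The study's supplement describes lower RNA integrity and more duplicate reads for Dounce-Input, and their part in the results below was not tested. The labels name no sequencing run, and run, preparation and RNA quality cannot be told apart here.

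Gene expression differed widely between Dounce-Input and Tissue-Input. Of 15753 genes tested, 7900 (50.1%) were called by edgeR's quasi-likelihood test, which here asked for a false discovery rate (FDR, by Benjamini and Hochberg) below 0.1 together with more than 2-fold change, 4528 (28.7%) higher and 3372 (21.4%) lower in Dounce-Input. A gene that missed either threshold is given below as neither or as not called. Changes above 4-fold numbered 2175 higher and 1039 lower, and changes above 16-fold 367 higher and 80 lower. Of the 13264 genes that were over 5 counts in every library of both groups, 6208 (46.8%) were called, 3445 (26.0%) higher and 2763 (20.8%) lower, with a median log2 fold change of 0.06. In 5015 (37.8%) of these 13264 genes all 4 Dounce-Input values lay above all 4 Tissue-Input values, and in 4678 (35.3%) all lay below, against 37.3% and 32.6% of all genes tested. The gene lists below are read against these shares. The counts for each list are over its members above the minimum count in both groups, because a gene that passed the filter in only one group had to differ. Log2 fold changes are Dounce-Input minus Tissue-Input, ± the standard error (SE) of the fit. Because these are bulk samples, fewer cells of a type and less RNA per cell cannot be told apart in any of them.

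**Figure D1:**
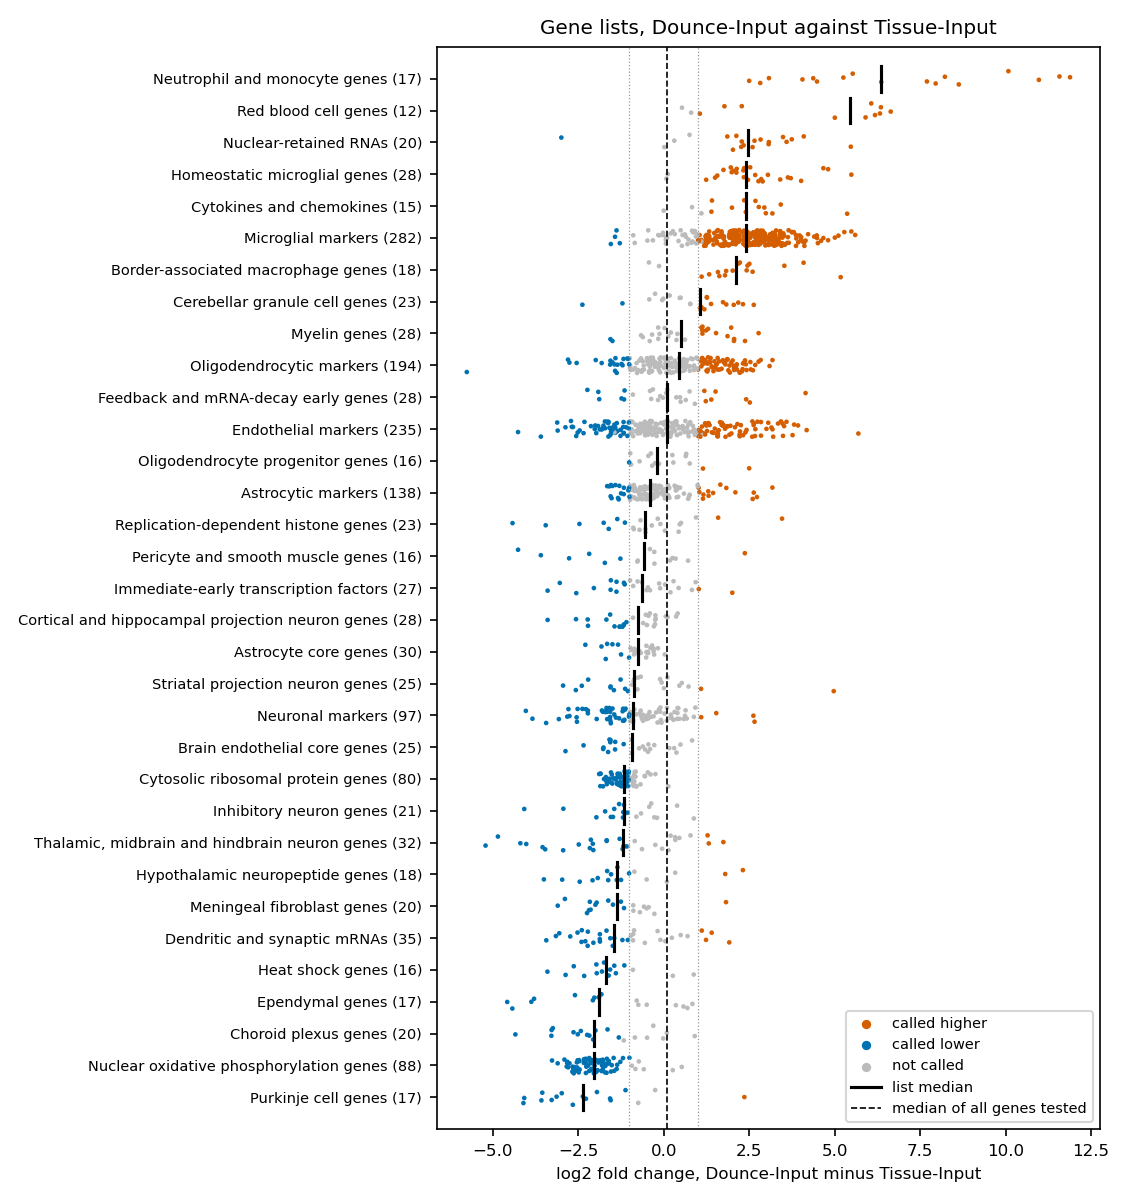
The log2 fold change of each tested member (points) of the gene lists, Dounce-Input minus Tissue-Input, is plotted by list with the number tested in brackets, orange for called higher, blue for called lower and grey for not called, with a thick bar at the list median, dotted lines at a 2-fold change and a dashed line at the median of all genes tested. Microglial markers lie mostly to the right with a median of 2.40, and nuclear oxidative phosphorylation genes mostly to the left with a median of -2.04.

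Most microglial genes were higher in Dounce-Input. P2ry12, the purinergic receptor that steers microglial processes, was at 269, 208, 155 and 285 CPM in mice 179, 180, 181 and 182, the order kept throughout, against 9.75, 7.71, 7.68 and 7.52 CPM in mice 946, 947, 948 and 949 of Tissue-Input. The groups did not overlap, with a log2 fold change of 4.81 ± 0.235 (edgeR, adjusted p = 1.38e-12). Tmem119, a membrane protein of resident microglia, was at 211, 186, 127 and 234 CPM against 24.3, 25.8, 27.6 and 33.2 CPM, again without overlap (2.77 ± 0.187, edgeR, adjusted p = 9.73e-11). Ptprc encodes CD45, a surface phosphatase of microglia and of white blood cells, and showed the largest rise of the homeostatic list, from 2.21, 1.08, 1.68 and 1.57 CPM in Tissue-Input to 94.1, 70.2, 60.6 and 74.1 CPM in Dounce-Input (5.49 ± 0.213). Csf1r, the receptor for the growth factor on which microglia depend, was at 600.1, 555, 293 and 597 CPM against 86.5 to 92.1 CPM (2.53 ± 0.232), with mouse 181 well below the other 3. Cx3cr1, the fractalkine receptor whose locus drives the recombinase, rose by a log2 fold change of 4.02.

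Of 28 homeostatic microglial genes, all over the minimum count in both groups, 26 were higher and none lower, where 26.0% of all such genes were higher and 20.8% lower, and the median log2 fold change was 2.41 against 0.06. The 2 not called were Sparc and Cst3, a matrix protein and a protease inhibitor that other glia also make, with log2 fold changes of 0.12 and 0.08. Of the 282 genes of the long microglial marker list, which comes from published purified and single cells rather than from these samples, 234 were over the minimum in both groups. Among these 202 were higher, 4 lower and 28 neither, and the median was 2.31. Its summed level was 13915 to 18761 CPM in Dounce-Input, 5883 to 6195 CPM in Tissue-Input and 43940.2 to 61508 CPM in the enzymatic Cell-Input (-) Inhibitors. Dounce-Input therefore lay between the other preparations on this list. Among those at a mean of 10 CPM or more in either group, the lowest fold changes were those of Ier3 (-1.54 ± 0.280), Rnf19b (-1.42 ± 0.106) and Ier5 (-1.38 ± 0.134), of which Ier3 and Ier5 are immediate-early genes that many cell types induce.

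Most genes of border-associated macrophages, which line the meninges and vessels, rose as well. Mrc1, the mannose receptor of these cells, was at 46.4, 61.5, 24.0 and 46.3 CPM against 5.83, 3.73, 2.74 and 3.14 CPM without overlap (3.53 ± 0.367, edgeR, adjusted p = 4.81e-08). The hemoglobin scavenger receptor Cd163 had a log2 fold change of 2.19 ± 0.347, and the oxidase subunit Cybb, which neutrophils also express, one of 5.17 ± 0.346. Of the 10 of 18 members over the minimum in both groups, 8 were higher and none lower (median 1.69). The interferon-induced Ifitm3 and Ifitm2 were not called. Their log2 fold changes were -0.13 and -0.43.

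Genes of blood cells were higher as well. Ltf, which encodes lactoferrin of neutrophil granules and lies at chromosome 9, 111019292 to 111042766 (mm10), was at 108, 45.4, 297 and 46.5 CPM in Dounce-Input and had 1 count in all 4 Tissue-Input libraries together. The ratio was 3982, with an exact (Clopper-Pearson) 95% interval of 714 to 157323 that covers counting error only, and it was 2556 (458 to 101029.8) without mouse 181. Camp, the cathelicidin precursor (chromosome 9, 109847377 to 109849456, 4 exons), was at 28.6, 18.8, 143 and 12.3 CPM and had no count in Tissue-Input, and against a floor of 3 counts over that group it was at least 511-fold higher, or at least 257-fold without mouse 181. By the same floor Retnlg was at least 288-fold and Cd177 at least 188-fold higher, and at least 185-fold and 148-fold without mouse 181.

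S100a9, a subunit of the calprotectin that fills neutrophils, was at 212, 98.6, 639 and 119.6 CPM against 0.603, 1.81, 0.211 and 1.01 CPM (8.22 ± 0.877). It was over the minimum count in Dounce-Input but not in Tissue-Input. Mouse 181 was highest and mouse 180 lowest in the Dounce-Input group, and the groups did not overlap. Without mouse 181 the log2 fold change was 7.33 ± 0.724. The chemokine receptor Cxcr2, through which neutrophils are recruited, was more even among the mice, at 298, 235, 373 and 361 CPM against 19.3, 13.9, 19.4 and 23.4 CPM (4.06 ± 0.217). Only 3 of the 17 neutrophil and monocyte genes were over the minimum in both groups, and all 3 were higher, while 13 passed in Dounce-Input alone. These 3 were Cxcr2, Mmp9 and Vcan, and Vcan is also on the list of oligodendrocyte progenitors. S100a9, Ltf and Camp are not among them. Against Cell-Input (-) Inhibitors the log2 fold change was 4.69 for Cxcr2 and 3.82 for S100a9, so the 2 genes did not run in parallel over the 3 preparations. The summed level of the list was 639.6 to 2453 CPM in Dounce-Input, 31.9 to 41.3 CPM in Tissue-Input and 71.0 to 173 CPM in Cell-Input (-) Inhibitors. Cxcr2 and Vcan, at means of 19.0 and 8.79 CPM, held most of the Tissue-Input sum. Their Dounce-Input means were 317 and 49.7 CPM.

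Red blood cell genes moved in the same direction. Alas2, the erythroid enzyme that starts heme synthesis, was at 955, 775, 344 and 464 CPM against 6.03, 6.02, 5.79 and 7.63 CPM (6.64 ± 0.512, edgeR, adjusted p = 6.70e-10). The alpha-globin gene Hba-a1 was at 9814, 8617, 7661 and 8651 CPM against 129, 184, 103 and 166 CPM (5.90 ± 0.344), although reads of Hba-a1 and its near-identical copy Hba-a2 cannot be assigned with certainty. Bpgm, which makes the red cell's allosteric regulator of hemoglobin, rose less (1.78 ± 0.278), and Fech, the last enzyme of heme synthesis, rose by 1.06. Mkrn1, which is also expressed in brain, was not called. Of the 9 of 12 members over the minimum in both groups, 7 were higher and none lower (median 2.28). The summed level of the list was 17437 to 23138 CPM in Dounce-Input, 671 to 794 CPM in Tissue-Input and 7296 to 17292 CPM in Cell-Input (-) Inhibitors. Both suspensions thus lay above Tissue-Input on this list. The median of the 12 tested members against Cell-Input (-) Inhibitors was 0.71. Most red cell, neutrophil and macrophage genes were therefore higher in Dounce-Input, as most microglial genes were. Their values did not run in parallel among the mice, with mouse 181 highest in S100a9 and lowest in P2ry12 and Alas2. The part of blood cells in the shared markers of white cells, such as Ptprc and Cybb, was not tested.

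**Figure D2:**
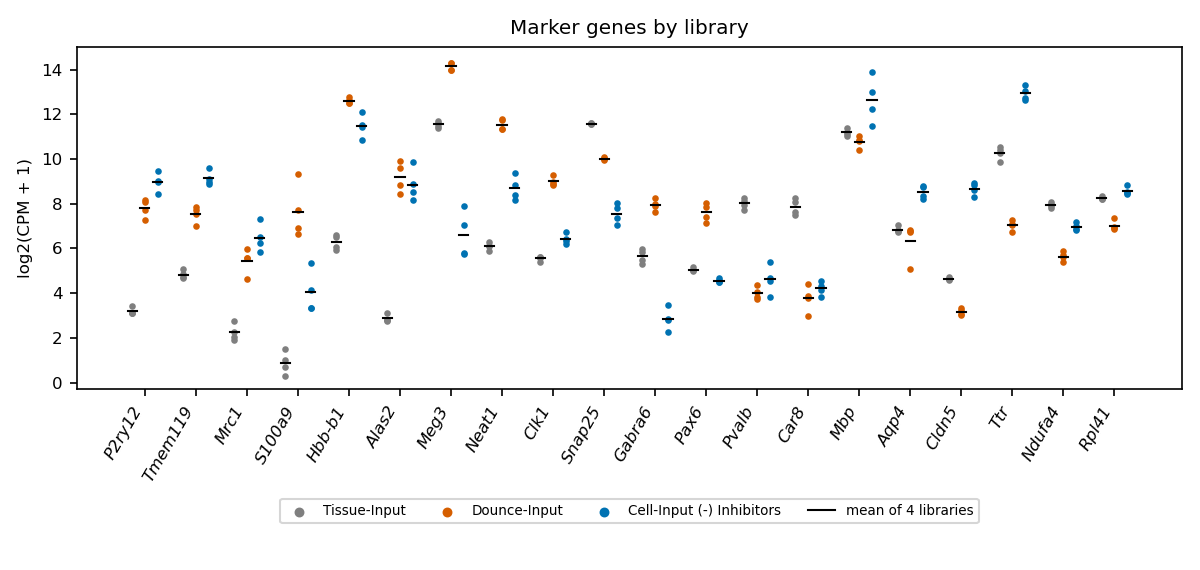
The log2(CPM + 1) of 20 marker genes in each library is shown for Tissue-Input (grey), Dounce-Input (orange) and Cell-Input (-) Inhibitors (blue), with a bar at the mean of 4 libraries. P2ry12, Mrc1, S100a9, Hbb-b1, Meg3 and Gabra6 lie above Tissue-Input in all 4 Dounce-Input libraries, and Snap25, Pvalb, Car8, Cldn5, Ttr, Ndufa4 and Rpl41 lie below it.

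Most long non-coding RNAs held in the nucleus rose. Meg3, an imprinted non-coding gene of neurons (chromosome 12, 109540996 to 109571729), was at 16351, 16210.4, 20397 and 20223 CPM in Dounce-Input and 2725, 3343, 2866 and 3143 CPM in Tissue-Input (2.60 ± 0.429, edgeR, adjusted p = 1.99e-05). It alone took 1.62% to 2.08% of the counts of the Dounce-Input libraries and 0.261% to 0.322% of those of Tissue-Input. Neat1, the scaffold of nuclear paraspeckles, rose from 77.8, 68.5, 67.3 and 58.8 CPM to 3392, 2582, 3501 and 2616 CPM (5.47 ± 0.241, edgeR, adjusted p = 3.98e-13). Malat1, a nuclear speckle RNA, rose from 439, 553, 471 and 501 CPM to 4897, 3159, 4480.0 and 4018 CPM (3.08 ± 0.309). The groups did not overlap in any of these 3 genes. Kcnq1ot1, the antisense RNA that silences an imprinted cluster, rose by 3.59, and Miat and Rian, both neuronal nuclear RNAs, by 2.28 and 2.13.

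Some mRNAs that are kept in the nucleus through retained introns also rose. Clk1 and Clk4, kinases of splicing factors, had log2 fold changes of 3.49 ± 0.132 and 3.07 ± 0.111, and Nktr and Rbm39 of 2.83 and 2.02. Among the 18 of 20 members of the list over the minimum in both groups, 14 were higher, 1 lower and 3 neither (median 2.31). The gene that fell was Peg13, an imprinted non-coding RNA of brain (-2.99 ± 0.122, edgeR, adjusted p = 1.67e-13), and Gas5, Srrm2 and Pvt1 were not called. Xist, which coats the inactive X chromosome of females, was at 5.37, 3.28, 612 and 559 CPM against 1.21, 0.602, 38.9 and 46.5 CPM, the last 2 mice of each group being female. Its log2 fold change was 3.75 ± 1.55, and it turned to -2.35 with Dounce-Input from mice 179 and 180 alone, both male. Over all genes tested, 495 (54.8%) of 903 that the table does not class as protein-coding were higher and 102 (11.3%) lower, against 4033 (27.2%) and 3270 (22.0%) of 14850 protein-coding genes. These shares include genes that passed the filter in only 1 group. Shares over genes above the minimum in both groups were not worked out. Genes not classed as protein-coding made up 17.5% of those under 1 CPM in Tissue-Input and 5.73% of all genes tested. The 3 non-coding genes with the largest rises above 10 CPM were Adh6-ps1 (7.36 ± 0.587), 9430076C15Rik (7.08 ± 0.575, 8.47 without mouse 946) and 4930578E11Rik (6.64 ± 0.416). The 3 with the largest falls, Gm12070 (-5.85 ± 0.189), Gm6682 (-4.74 ± 0.187) and BC002163 (-4.39 ± 0.306), may share reads with near-identical genes, so their counts are uncertain, and Gm12070 (-0.30) and BC002163 (0.06) were not called with other Tissue-Input libraries of the same mice.

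Neuronal genes were divided by cell type. Among genes of cerebellar granule cells, the small and densely packed neurons of the cerebellum, 12 of 23 rose, while 13 of 16 genes of Purkinje cells, the large neurons beside them, fell. Gabra6, a GABA-A receptor subunit made by granule cells, was at 240.0, 196, 309 and 254 CPM in Dounce-Input against 57.0, 37.9, 61.1 and 43.7 CPM in Tissue-Input (2.32 ± 0.279, edgeR, adjusted p = 3.59e-07). Pax6, a transcription factor of granule cells and some astrocytes, had a log2 fold change of 2.63 ± 0.186, and the cadherin Fat2 one of 2.05 ± 0.301. Pvalb, the calcium buffer of Purkinje cells and fast-spiking interneurons (chromosome 15, 78191118 to 78206351), was at 13.2, 19.8, 12.5 and 15.7 CPM against 278, 246, 307 and 211 CPM (-4.08 ± 0.326, edgeR, adjusted p = 1.14e-09). Car8, which binds the inositol trisphosphate receptor of Purkinje cells, fell from 266, 178, 302 and 198 CPM to 20.2, 12.9, 6.90 and 13.5 CPM (-4.10 ± 0.257). The groups did not overlap for any of these genes.

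Beside the 12 granule cell genes that rose, 2 were lower and 9 neither (median 1.06). Those lower were Slc17a7, the vesicular glutamate transporter of many excitatory neurons (-1.21 ± 0.321), and Calb2, a calcium buffer also made by interneurons (-2.38 ± 0.240). The granule cell genes Cbln1 and Etv1 were not called, with log2 fold changes of 0.78 and -0.01. The summed level of the granule cell list overlapped between the groups, at 3352 to 4552 CPM in Dounce-Input and 3046 to 3586 CPM in Tissue-Input. That of the Purkinje list did not, at 1059 to 1308 CPM in Dounce-Input and 2631 to 3479 CPM in Tissue-Input. Beside the 13 Purkinje genes that fell, of those over the minimum in both groups, 1 was higher and 2 neither (median -2.32). Of these genes Pcp2, a modulator of G proteins, fell by 9.69-fold, Calb1 by 6.31-fold and Itpr1, the calcium release channel, by 5.15-fold.

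Forebrain neuron genes were lower in part of each list. Among 23 striatal projection neuron genes over the minimum in both groups, 9 were lower, 2 higher and 12 neither (median -0.86). Ppp1r1b, the dopamine-regulated phosphatase inhibitor DARPP-32, fell (-2.94 ± 0.2503), as did the dopamine receptor gene Drd2 (-2.57 ± 0.456), while Penk, the enkephalin precursor, was not called (-0.10 ± 0.197). Of the 2 that rose, Rgs9 regulates striatal G protein signaling (1.09 ± 0.169) and Ptpn7 encodes a phosphatase best known from white blood cells (4.97 ± 0.319). Ptpn7 was at 140.2, 105, 199 and 243 CPM in Dounce-Input, 4.82, 5.30, 4.63 and 7.07 CPM in Tissue-Input and 2.38 to 7.50 CPM in Cell-Input (-) Inhibitors.

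Of 27 cortical and hippocampal projection neuron genes over the minimum in both groups, 13 were lower, none higher and 14 neither (median -0.90). The cortical transcription factors Emx1, Neurod6 and Tbr1 fell, with log2 fold changes of -2.56 ± 0.419, -2.22 ± 0.360 and -1.28 ± 0.234, and Camk2a, the synaptic kinase subunit, was not called (-0.90 ± 0.304). Of 19 inhibitory neuron genes over the minimum in both groups, 11 were lower, none higher and 8 neither (median -1.13). Gad1, the main enzyme of GABA synthesis, fell (-1.19 ± 0.212), as did the vesicular GABA transporter Slc32a1 (-1.71 ± 0.195) and the neuropeptide gene Sst (-1.55 ± 0.235). Reln, a secreted glycoprotein that granule cells also make, was not called but lay above Tissue-Input in all 4 libraries (0.88 ± 0.221).

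Genes of neurons in deeper regions were also lower more often than higher. Of 24 thalamic, midbrain and hindbrain genes over the minimum in both groups, 10 were lower, 3 higher and 11 neither (median -0.74), and 8 more passed the filter in Tissue-Input alone. Th, the first enzyme of dopamine synthesis, was at 3.93, 8.09, 2.68 and 3.07 CPM against 50.7, 56.2, 41.5 and 57.4 CPM (-3.47 ± 0.437, edgeR, adjusted p = 6.76e-07). Tph2, its counterpart for serotonin, was at 0.207, 0.205, 0 and 3.42 CPM against 19.6, 17.5, 20.9 and 4.94 CPM (-4.19 ± 0.680). Those higher were the transcription factor genes Gata3 (1.74 ± 0.311) and Zfhx3 (1.28 ± 0.124) together with Plekhg1 (1.32 ± 0.171). Of 16 hypothalamic neuropeptide genes, 10 were lower, 2 higher and 4 neither (median -1.30), and the median of all 18 tested, -1.36, became -0.46 with a transcript length term in the fit. Hcrt and Oxt, which encode orexin and oxytocin, had log2 fold changes of -2.97 ± 0.539 and -2.46 ± 0.556, and the 2 that rose were Sim1 (2.32 ± 0.441) and Gnrh1 (1.80 ± 0.562).

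mRNAs of synapses and dendrites were lower for most members. Snap25, a component of the vesicle fusion machinery, was at 1001, 1018, 1091 and 1062 CPM against 3121, 3159, 3039 and 2999 CPM (-1.56 ± 0.2499, edgeR, adjusted p = 1.38e-05). Nrgn, the calmodulin-binding neurogranin whose mRNA is found in dendrites, was at 162, 162, 148 and 132 CPM against 1594, 1533, 1575 and 1828 CPM (-3.43 ± 0.279, edgeR, adjusted p = 1.42e-09). Neither gene had overlapping groups. Vamp2 and Syn1, both of synaptic vesicles, fell by 8.30-fold and 6.64-fold, and the postsynaptic scaffold gene Dlg4 by 4.67-fold. Of 34 dendritic and synaptic mRNAs over the minimum in both groups, 19 were lower, 4 higher and 11 neither (median -1.33). Those that rose were Gria2, an AMPA receptor subunit (1.92 ± 0.160), the membrane adaptor gene Ank2 (1.40 ± 0.118), Lrrc7 (1.24 ± 0.325) and Pclo, a presynaptic scaffold (1.11 ± 0.177).

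On the long neuronal marker list, 41 of 95 members over the minimum in both groups were lower, 4 higher and 50 neither (median -0.89). Its summed level was 23126 to 25829 CPM in Dounce-Input, 29632 to 30609 CPM in Tissue-Input and 2439 to 3952 CPM in Cell-Input (-) Inhibitors. The Dounce-Input sums lay below those of Tissue-Input and above those of the enzymatic preparation in every library. Snhg11, a nuclear non-coding RNA at 6740.2, 7321, 8219 and 8734 CPM against 1106, 1269.7, 1222 and 1322 CPM (2.66 ± 0.351), made up 29.1% to 33.8% of the Dounce-Input sums and 3.65% to 4.39% of those of Tissue-Input. Without it the sums were 16386 to 17095 CPM in Dounce-Input, 28409 to 29339 CPM in Tissue-Input and 2420 to 3902 CPM in Cell-Input (-) Inhibitors. At a mean of 10 CPM or more in either group, the largest rises were those of Snhg11, Trank1 (2.62 ± 0.274) and the presynaptic adhesion gene Nrxn3 (1.54 ± 0.184). The largest falls were those of Ina, an axonal intermediate filament (-4.03 ± 0.220), Rab3b, a vesicle GTPase (-3.84 ± 0.282), and Rit2 (-3.44 ± 0.200).

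Oligodendrocyte genes were mixed. Mog, a myelin surface protein, was at 256, 237, 319.9 and 302 CPM against 71.4, 78.9, 67.8 and 65.6 CPM (1.97 ± 0.151, edgeR, adjusted p = 6.10e-10). Mbp, whose mRNA is carried out into the myelin sheath, was not called and overlapped between the groups, at 1879, 2121, 1359 and 1785 CPM against 2408, 2707, 2253 and 2119 CPM (-0.41 ± 0.340). Cnp, a phosphodiesterase of the sheath, fell (-1.56 ± 0.147), as did the small heat shock gene Cryab (-1.50 ± 0.148). Of 28 myelin genes, 13 were higher, 2 lower and 13 neither (median 0.51). Of the 194 oligodendrocytic markers, 190 were over the minimum in both groups, with 65 higher, 18 lower and 107 neither (median 0.46). Among members at a mean of 10 CPM or more in either group, the extremes were Ccp110 (3.18 ± 0.152), Cdh19 (3.10 ± 0.219) and Nipal4 (2.84 ± 0.179) on one side and Acot7 (-2.80 ± 0.143), Fez1 (-2.76 ± 0.145) and Tubb4a (-2.55 ± 0.123) on the other.

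Of 16 genes of oligodendrocyte progenitors, 2 were higher, 1 lower and 13 neither. The proteoglycan gene Vcan, which monocytes also express, rose (2.50 ± 0.234), as did the phosphatase gene Ptprz1 (1.15 ± 0.194), and Gpr17, a receptor of differentiating progenitors, fell (-1.01 ± 0.276). Pdgfra, the receptor that defines these cells, was not called (-0.71 ± 0.199).

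Astrocyte genes were slightly lower as a group and seldom past the threshold. Aqp4, the water channel of astrocytic endfeet, was at 109, 113, 32.6 and 105 CPM against 108, 131, 113 and 107 CPM, with mouse 181 far below the other 3 (-0.34 ± 0.257), and was not called. Gfap, the astrocytic intermediate filament, was not called either, at 172, 158, 53.1 and 122 CPM against 226, 238, 233 and 206 CPM (-0.83 ± 0.334), although all 4 Dounce-Input values were below those of Tissue-Input. Of 30 core astrocyte genes, 8 were lower, none higher and 22 neither (median -0.76), and in 23 all Dounce-Input values lay below all Tissue-Input values. Those lower included the metallothionein genes Mt2 (-2.29 ± 0.177) and Mt3 (-1.82 ± 0.142), which buffer metals, the glycolytic Aldoc (-1.65 ± 0.240) and the gap junction gene Gja1 (-1.25 ± 0.205).

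Of the 136 long-list astrocytic markers over the minimum in both groups, 14 were higher, 16 lower and 106 neither (median -0.39). At a mean of 10 CPM or more in either group, the rises were led by Appl2 (3.18 ± 0.108), Slc15a2 (2.73 ± 0.378) and Pax6 (2.63), and the falls by Aldoc (-1.65), Lcat (-1.59 ± 0.220) and Gpr37l1 (-1.55 ± 0.196).

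The core endothelial and choroid plexus genes that were called were lower, as were most of the meningeal ones. Cldn5, the tight junction protein of the blood-brain barrier, was at 8.37, 7.48, 9.20 and 7.003 CPM against 25.02, 24.0, 24.0 and 23.0 CPM (-1.59 ± 0.172, edgeR, adjusted p = 8.24e-08), and with a transcript length term it was at -0.96 and no longer called. Flt1, a receptor for vascular growth factor, fell (-1.76 ± 0.218), and Pecam1, an adhesion molecule that platelets and white cells share, was not called (0.49 ± 0.219). Of the 22 core brain endothelial genes over the minimum in both groups, 9 were lower, none higher and 13 neither (median -0.82). The long endothelial marker list went the other way in number, with 56 of 167 higher, 28 lower and 83 neither (median 0.31), although the median of all 235 tested members, 0.08, turned to -0.10 with only the compared groups in the fit. At a mean of 10 CPM or more in either group, the 3 largest rises of that list were Mmrn2, an endothelial matrix protein (5.69 ± 0.362), Ctla2a (3.81 ± 0.190) and Slfn5 (3.52 ± 0.212), and the largest falls Pcp4l1 (-3.10 ± 0.183), the vessel calcification inhibitor Mgp (-2.46 ± 0.194) and the surface antigen Ly6c1 (-2.34 ± 0.227). In this list 29 further members were over the minimum in Tissue-Input alone and 9 in Dounce-Input alone.

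Rgs5, a regulator of G protein signaling in pericytes, was at 0.413, 1.02, 0.575 and 0.342 CPM against 7.64, 6.99, 6.63 and 9.21 CPM (-3.59 ± 0.435). Of the 11 pericyte and smooth muscle genes over the minimum in both groups, 3 were lower, 1 higher and 7 neither, the higher being the adhesion gene Mcam (2.37 ± 0.164). That share of lower genes is near the 20.8% of all such genes, and the median of all 16 tested, -0.58, turned to 0.29 when every sample had to hold 10 counts or more. Of 18 meningeal fibroblast genes, 10 were lower, 1 higher and 7 neither (median -1.21). Igf2, a growth factor secreted by the meninges and choroid plexus, was at 21.5, 21.4, 15.7 and 15.0 CPM against 163, 161, 174 and 141 CPM (-3.10 ± 0.216), and the exception was Col6a1, a collagen chain (1.82 ± 0.229).

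Ttr, the thyroxine carrier made by the choroid plexus that secretes cerebrospinal fluid, was at 133, 156, 138 and 105 CPM against 1486, 1349, 1242 and 949.6 CPM (-3.24 ± 0.323, edgeR, adjusted p = 2.70e-08), and at 6400.1 to 10149 CPM in Cell-Input (-) Inhibitors. The groups did not overlap in any pair of these preparations. Of the 13 choroid plexus genes over the minimum in both groups, 7 were lower, none higher and 6 neither (median -1.31), and 6 more passed only in Tissue-Input. Foxj1, the transcription factor of ciliated cells, stood for the ependyma that lines the ventricles and was at 7.64, 6.66, 1.92 and 3.07 CPM against 19.5, 20.1, 17.9 and 16.4 CPM (-1.82 ± 0.266). Of 6 ependymal genes over the minimum in both groups, 2 were lower and 4 neither, and 8 of the 17 listed passed only in Tissue-Input.

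Housekeeping mRNAs for respiration and for ribosomes were lower. Of the 85 nuclear genes for oxidative phosphorylation over the minimum in both groups, 79 were lower, none higher and 6 neither, with a median of -2.03 against 0.06 for all such genes. Cox5a, a subunit of the terminal oxidase, was at 33.1, 28.5, 30.9 and 23.6 CPM against 286, 303, 268 and 261 CPM (-3.27 ± 0.117, edgeR, adjusted p = 4.47e-14). Atp5a1, a subunit of the ATP synthase, fell by 7.07-fold. Of 80 cytosolic ribosomal protein genes, 58 were lower, none higher and 22 neither (median -1.16), and in 78 of them every Dounce-Input value was below every Tissue-Input value. Rpl8 had a log2 fold change of -1.89 ± 0.119, and Rpl30 of -0.24 ± 0.111 and was not called. With a transcript length term in the fit, the medians of the tested members were -1.27 for the oxidative phosphorylation genes and -0.38 for the ribosomal protein genes. Replication-dependent histone genes, whose mRNAs lack poly(A) tails, showed no shared direction, with 1 of the 10 over the minimum in both groups higher, 2 lower and 7 neither. The one that rose was Hist4h4 (3.46 ± 0.273).

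The change followed transcript length over all genes. Among 15002 tested genes with a length in the annotation, the 3001 shortest (65 to 1992 bases) had a median log2 fold change of -0.63, with 19.3% called higher and 38.6% lower. The 3000 longest (5245 to 123179 bases) had a median of 0.46, with 34.3% higher and 11.03% lower. The 3 bins of about equal size between had medians of -0.08, 0.12 and 0.24, rising with length. Genes are not independent replicates, and the part of length and of RNA integrity in the gene lists was not tested beyond the fit with a length term.

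**Figure D3:**
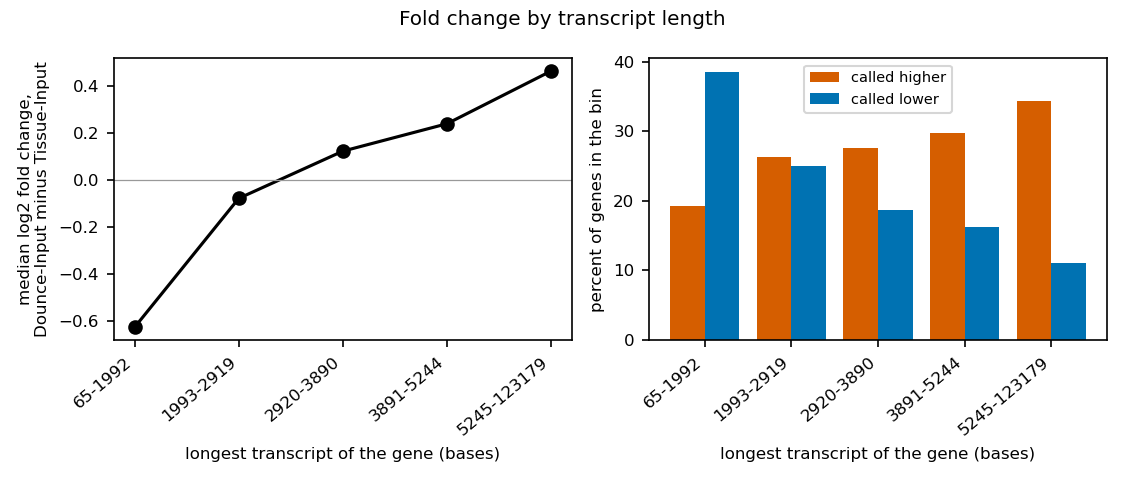
Genes are split into 5 bins of about equal size by the length of their longest transcript in bases (x axis), with the median log2 fold change, Dounce-Input minus Tissue-Input, on the left and the percent of genes called higher (orange) or lower (blue) on the right. The median rises from -0.63 in the shortest bin to 0.46 in the longest, and the share called lower falls from 38.6% to 11.03%.

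Whether mechanical dissociation in the cold sets off early-response genes was addressed with 4 lists. Immediate-early transcription factors were more often lower than higher in Dounce-Input against Tissue-Input. Fos was at 29.9, 28.3, 16.7 and 13.3 CPM in Dounce-Input and 49.8, 33.6, 25.4 and 30.5 CPM in Tissue-Input, with overlapping groups and a change under 2-fold (-0.63 ± 0.267, edgeR, adjusted p = 0.0384), against 848, 1071, 1079 and 1732 CPM in Cell-Input (-) Inhibitors from mice 156, 157, 1361 and 1362. Jun, its partner in the AP-1 complex, fell from 111, 93.0, 92.0 and 87.8 CPM to 32.8, 36.7, 30.9 and 30.1 CPM (-1.55 ± 0.139), and was at 937 to 1518 CPM in the enzymatic preparation. Egr1, a zinc finger factor induced by neuronal activity, fell by 5.88-fold, and Egr3 by 10.5-fold. Npas4, an activity-dependent factor of neurons, rose most, at 60.2, 62.3, 47.6 and 44.8 CPM against 8.84, 12.8, 12.2 and 19.9 CPM (2.01 ± 0.286, edgeR, adjusted p = 3.35e-06). It was at 0.105, 1.17, 1.68 and 1.81 CPM in Cell-Input (-) Inhibitors. Klf2 (0.94 ± 0.137) and Nr4a1 (0.83 ± 0.208) were not called, but lay above Tissue-Input in all 4 Dounce-Input libraries. Of 25 members over the minimum in both groups, 10 were lower, 2 higher (Npas4 and the antiproliferative Btg2, at 1.03 ± 0.188 just past the threshold) and 13 neither, with a median of -0.63.

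Of 27 early genes of feedback and mRNA decay over the minimum in both groups, 6 were higher, 6 lower and 15 neither (median 0.08). Zfp36, which degrades cytokine mRNAs, rose (1.52 ± 0.245), as did Nfkbiz, a regulator of NF-kappaB (2.41 ± 0.275), and Cdkn1a, the cell cycle inhibitor p21, fell (-2.23 ± 0.150). Dusp1, a phosphatase that shuts off stress kinases, was not called, at 60.9, 46.9, 52.2 and 35.7 CPM against 41.1, 37.7, 36.9 and 36.2 CPM (0.37 ± 0.179).

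Most heat shock genes were lower. Hspa8, the constitutive chaperone Hsc70, was at 453, 415, 328 and 357 CPM against 2909.5, 2772, 2856 and 2812 CPM (-2.87 ± 0.123, edgeR, adjusted p = 2.94e-13), and the inducible Hspa1a at 4.44, 7.38, 2.49 and 5.64 CPM against 33.8, 26.1, 23.3 and 19.98 CPM (-2.32 ± 0.259). Neither overlapped between the groups. Of 15 members over the minimum in both groups, 12 were lower, none higher and 3 neither (median -1.61), with Chordc1, a co-chaperone, above Tissue-Input in all 4 libraries but not called (0.88 ± 0.107).

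Most cytokine and chemokine genes had few counts in both groups, with the exception of Csf1. Il1b, the interleukin-1 beta gene, was at 8.99, 10.1, 4.99 and 4.44 CPM against 0, 0.723, 0 and 0 CPM (5.37 ± 0.629), its Tissue-Input counts all coming from mouse 947, and at 22.3 to 52.8 CPM in Cell-Input (-) Inhibitors. Il1a was at 6.20, 1.74, 0.767 and 4.61 CPM against 0.502, 0.602, 0.316 and 0.337 CPM (2.94 ± 0.572). Tnf was at 0.413, 0, 0 and 0 CPM in Dounce-Input, had no count in Tissue-Input and lay at 12.6 to 24.9 CPM in the enzymatic preparation. Only Csf1 and Cxcl16 of the 15 listed were over the minimum in both groups, and both were higher, Csf1, the ligand of Csf1r, at 59.9, 55.01, 51.4 and 52.6 CPM against 20.8, 24.9, 19.7 and 18.0 CPM (1.40 ± 0.165) and the chemokine Cxcl16 with a log2 fold change of 2.00 ± 0.263. The summed level of the list was 73.4 to 86.7 CPM in Dounce-Input, 21.6 to 30.7 CPM in Tissue-Input and 314 to 655 CPM in Cell-Input (-) Inhibitors. Csf1 made up 62.5% to 70.0% of that sum in Dounce-Input and 81.0% to 83.3% in Tissue-Input, and without it the sums were 22.1 to 31.6 CPM and 3.59 to 5.78 CPM. Microglial, macrophage and neutrophil lists, whose cells are the usual makers of these cytokines, rose beside them, and their part in the rise was not tested.

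Against Cell-Input (-) Inhibitors, tested in the same fit, 71 of the 86 early-response genes of the 4 lists were over the minimum in both groups. Of these 71, 51 were lower in Dounce-Input, 3 higher and 17 neither, where 6914 (52.3%) of all 13224 such genes were called, 3401 (25.7%) lower and 3513 (26.6%) higher. Among 24 immediate-early factors 17 were lower and 2 higher (median -3.14), among 27 feedback genes 22 were lower and 1 higher (-1.82), and among 15 heat shock genes 9 were lower and none higher (-1.07). Only 5 cytokine genes were over the minimum in both groups, 3 of them lower and none higher. Another 10 passed in Cell-Input (-) Inhibitors alone, where the filter favored a higher level. The cytokine median over all 15 tested was -3.71, and it was -1.22 when every sample had to hold 10 counts or more. Fos had a log2 fold change of -5.72 ± 0.304 (edgeR, adjusted p = 3.21e-12), Jun of -5.26 ± 0.157 and Zfp36 of -6.36 ± 0.238 against the enzymatic preparation. The 3 genes higher than there were Egr4 (1.18 ± 0.392), Nr4a2 (1.12 ± 0.256) and Dusp5 (1.13 ± 0.334), and Npas4, over the minimum in Dounce-Input alone of these groups, was at 5.48 ± 0.370. The microglial marker sum was lower in Dounce-Input and the neuronal sum higher, as given above, and the part of cell makeup in these differences was not tested.

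**Figure D4:**
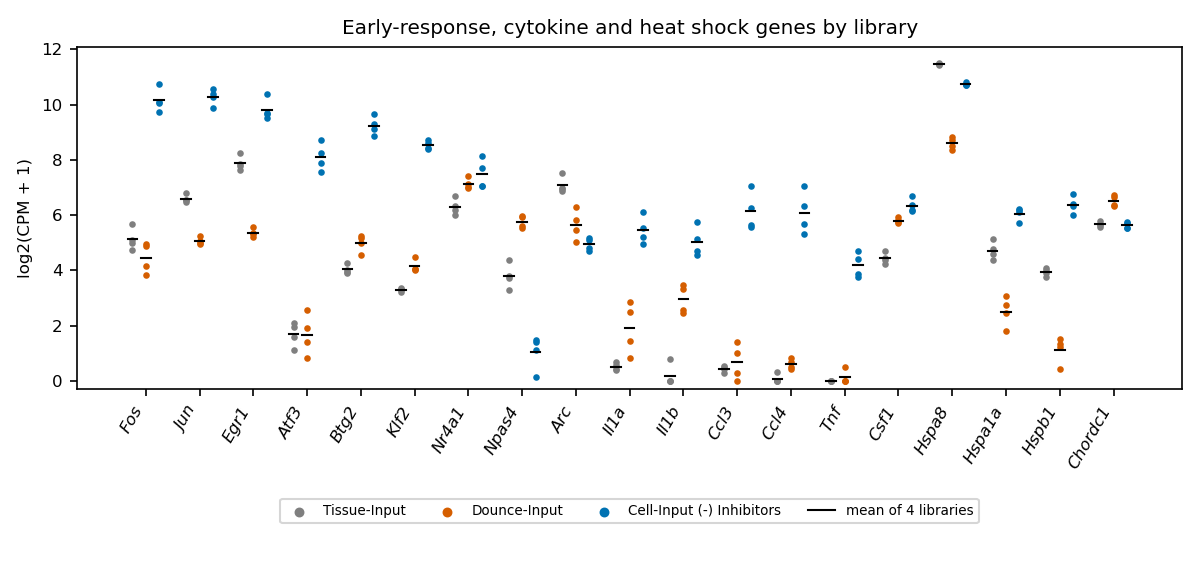
The log2(CPM + 1) of early-response, cytokine and heat shock genes in each library is shown for Tissue-Input (grey), Dounce-Input (orange) and Cell-Input (-) Inhibitors (blue), with a bar at the mean of 4 libraries. Fos and Jun in Dounce-Input lie at or below Tissue-Input and far below the enzymatic preparation, Npas4 lies above both, and Hspa8 lies below both.

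The largest changes among protein-coding genes at 10 CPM or more, without overlap between the groups, were those of blood cells on one side. Beside Ltf, Camp, Retnlg, Cd177 and S100a9, the 10 largest rises included Trim10, an erythroid ubiquitin ligase that was at least 171-fold higher by the floor, and the neutrophil granule gene Ngp (8.63 ± 1.04, 7.83 without mouse 181 and 10.06 without mouse 946). Also among them, Ffar2, a short-chain fatty acid receptor of neutrophils, was at 10.2, 7.27, 16.9 and 26.0 CPM against 1 count over all Tissue-Input libraries, a ratio of 493 (exact 95% interval 87.9 to 19505). Chi3l3, a chitinase-like protein of myeloid cells, was at 18.6, 7.48, 88.6 and 15.4 CPM against 3 counts, a ratio of 322 (109.9 to 1567) that was 166 (56.2 to 807) without mouse 181. The 10 largest falls were Alb (-6.52 ± 0.476), Sncg (-4.50 ± 0.411), Tuba1c (-4.36 ± 0.134), Fam131c (-4.36 ± 0.503), Folr1 (-4.34 ± 0.715), Tph2, Car8, Pvalb, Tuba8 (-4.07 ± 0.359) and AI836003 (-4.04 ± 0.188). In 4 of them 1 library set much of the value, with Alb at -8.40 and Sncg at -5.42 without mouse 179, Tph2 at -6.51 without mouse 182, and the Dounce-Input counts of Folr1 all in mouse 180. Tuba1c, a tubulin gene with close paralogs, reversed to 1.61 when other Tissue-Input libraries of the same mice were used, so its fall is uncertain. The genes with the highest mean CPM were Meg3, Hba-a1, Snhg11, Beta-s and Hbb-b1 in Dounce-Input, and Rn45s, Snap25, Meg3 and Hspa8 were among the 5 highest in Tissue-Input, not corrected for length.

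Finally, genes near absent from one group were listed, a description chosen after their values were seen. Of 1552 genes with a mean under 1 CPM in Tissue-Input, 95 reached at least 10 CPM in Dounce-Input, 77 of them protein-coding. Of these 95, 43 were also under 1 CPM in Cell-Input (-) Inhibitors, 26 protein-coding and 17 not. An example is Hoxb1, a hindbrain patterning gene (chromosome 11, 96365758 to 96368253, 2 exons), at 72.1, 48.2, 101 and 126 CPM in Dounce-Input, 0.201, 0.482, 0.421 and 0.561 CPM in Tissue-Input and 0.419, 0.292, 0.895 and 0.286 CPM in Cell-Input (-) Inhibitors. The annotated span of 11 (11.6%) of the 95 lay inside another gene, against 4.12% of the 1552 and 1.45% of all genes tested. In the other direction, 6 of 960 genes under 1 CPM in Dounce-Input were at 10 CPM or more in Tissue-Input. They were Sncg, a synuclein of peripheral and brainstem neurons, Tph2, Fam131c, Aldoart2, the folate receptor gene Folr1 of the choroid plexus and the serum albumin gene Alb (chromosome 5, 90460889 to 90476603), the last at 1.03, 0.205, 0 and 0 CPM against 37.5, 46.4, 23.7 and 39.5 CPM (-6.52 ± 0.476).

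**Figure D5:**
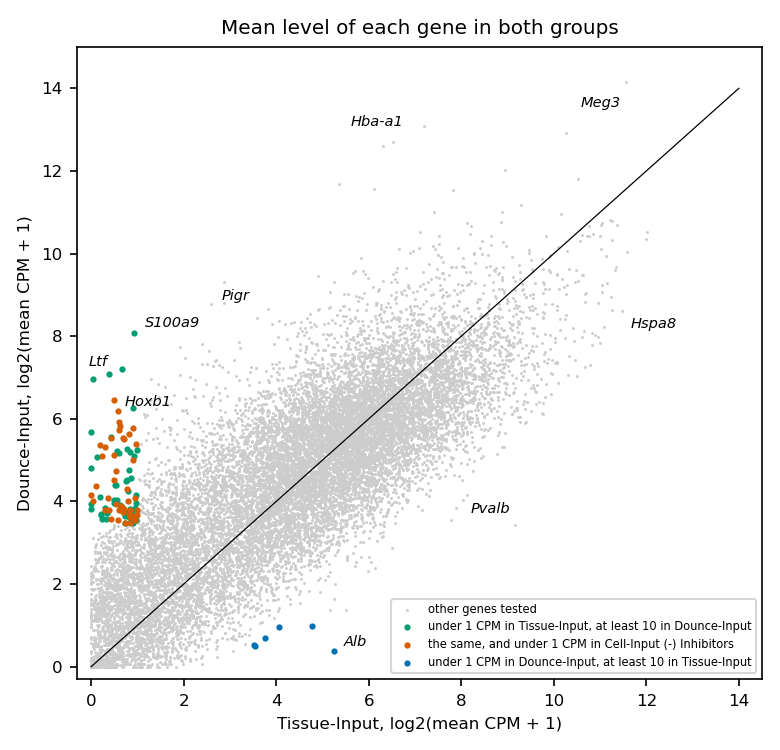
Each tested gene is placed by its mean level in Tissue-Input (x axis) and Dounce-Input (y axis), both as log2(mean CPM + 1), with a diagonal line of equal level and colors for genes under 1 CPM in one group and at least 10 CPM in the other. The 95 genes near absent from Tissue-Input stand at the left edge, 43 of them in orange for a mean under 1 CPM in Cell-Input (-) Inhibitors also, and the 6 near absent from Dounce-Input stand at the bottom in blue.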

How the data were processed

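Per the labels and the study's methods, the authors made stranded poly(A) libraries, aligned reads to mm10 in Strand NGS, removed duplicates and deposited expected counts per gene (16.82% of the values are whole) beside DESeq2-normalized log2 values baselined to the Tissue-Input median. The expected counts were rounded, and 23 symbols that a spreadsheet had turned into dates were restored. A gene was tested where every sample of at least 1 group had over 5 counts, and 15753 of 16000 genes passed. All 16 Input libraries, in 4 groups, entered one edgeR 4.0.16 quasi-likelihood fit (R 4.3.3) with TMM normalization. A gene was called when its FDR (Benjamini-Hochberg) was below 0.1 and it changed more than 2-fold. CPM used TMM-scaled library sizes. The common biological coefficient of variation was 0.174. The deposited log2 values entered only an alternative fit with limma 3.58.1, and DESeq2 1.42.0 gave another. Procedures were tested on simulated data.

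Groups came from the sample labels. Sexes, used as a covariate in 1 alternative, came from the study's supplement. Replicates are separate mice. The depth was 5107648 to 10411982 counts per library, so genes under about 1 CPM rest on few counts, and intervals and floors cover counting error only. Transcript lengths and coordinates came from the mm10 annotation (15208 genes, 95.0%).

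The gene lists and the rules below were chosen with earlier results of these data known. The 5 long marker lists come from published purified and single mouse cells and the others are textbook lists, 34 in all, of which the mitochondrially encoded genes had no member in the table. Named genes were the 10 largest rises and falls among called protein-coding genes at 10 CPM or more without overlap between the groups, the 3 largest non-coding ones each way under the same conditions, any member of a textbook list, the 3 highest and lowest of each long list at 10 CPM or more and the 5 genes highest in each group. Some genes that the rule names are not reported here.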

Additional observations from a re-analysis of the deposited data

Results flagged for a closer look

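In 11 of 305 groups of 4 libraries (3.61%), 1 library stood apart from its own group, its gap to the nearest other library taking a larger share of the group's range than Dixon's 95% critical value. Chance flags about 1 in 20 groups. In Dounce-Input the share was 0.875 for Camp and 0.863 for Chi3l3, with mouse 181 highest in both, 0.854 for Csf1r and 0.901 for Aqp4, with mouse 181 lowest in both, 0.94 for Tph2 and 1 for Folr1. In Tissue-Input it was 0.916 for P2ry12, 0.871 for Alas2, 0.872 for Kcnq1ot1, 0.909 for Nefl and 0.881 for the summed inhibitory neuron genes. None of these libraries turned the direction of its gene. Leaving out mouse 181 moved the median of the neutrophil and monocyte genes from 6.36 to 5.89.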

How the results depend on the processing

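No paired analysis was possible because the Dounce-Input and Tissue-Input mice were different animals that share no replicate number. Of the values recomputed, 100 of 104 counts, 590 of 650 list medians and 2190 of 2223 single-gene values kept their direction and stayed within the replicate spread or on the same side of the threshold. The number of genes called in either direction was 5491 to 8024 over all alternatives, against 7900. Asking every sample for 10 counts or more, which drops genes, left 2914 genes higher in place of 4528 and 74 named genes called in place of 112.

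List medians below are over all tested members, and the cause was not tested unless named. With the filter of 10 counts, which removes low members, they became 2.18 for microglial markers (from 2.40), 0.29 for endothelial markers, 1.68 for cytokines, -0.45 for thalamic, midbrain and hindbrain, -1.65 for hypothalamic, -0.74 for core endothelial, 0.29 for pericyte, -0.68 for choroid plexus, -0.51 for ependymal, 3.82 for red blood cell, 3.07 for neutrophil and monocyte and -0.69 for histone genes, and -1.22 for cytokines against Cell-Input (-) Inhibitors. With a transcript length offset they became -0.00377 for endothelial markers, 2.83 for homeostatic microglial, 0.22 for feedback, 2.96 for cytokine, 0.78 for myelin, -1.88 for Purkinje, -0.88 for inhibitory neuron, -0.46 for hypothalamic, -1.58 for synaptic, -0.67 for core endothelial, -1.60 for choroid plexus, -1.29 for ependymal, 4.68 for red blood cell, 7.09 for neutrophil and monocyte, -0.38 for ribosomal, -1.27 for oxidative phosphorylation and 0.13 for histone genes. With only the compared groups in the fit they became 0.36 for oligodendrocytic and -0.10 for endothelial markers, 1.91 for cytokine, 6.92 for neutrophil and -0.80 for histone genes. With other Tissue-Input libraries of the same mice, made for comparing sorts, they became -0.16 for endothelial markers, -0.0806 for feedback, 1.94 for cytokine, -1.20 for core endothelial, -0.79 for pericyte and 6.87 for neutrophil genes, Tuba1c reversed to 1.61 and BC002163 to 0.056. With Dounce-Input from mice 179 and 180 alone, chosen after seeing the data, they became 0.36 for oligodendrocytic markers, 2.72 for cytokine, 0.0254 for progenitor, -1.78 for choroid plexus and 5.87 for neutrophil genes, and Xist reversed to -2.35. Limma on the deposited values gave -0.0747 for endothelial markers and 1.39 for cytokines, and the DESeq2 Wald test 2.60 for cytokines.

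Leaving out 1 library gave -0.10 (without mouse 179; -0.02 without mouse 180) to 0.10 for endothelial markers, 0.0191 (without mouse 946) to 0.27 (without mouse 947) for feedback genes, 2.07 to 2.72 for cytokines, 5.89 to 7.37 for neutrophil genes, -0.84 (without mouse 179) to -0.39 for histone genes and -4.26 to -3.43 for cytokines against Cell-Input (-) Inhibitors. Among single genes Btg2 fell just under the 2-fold threshold in 9 alternatives, while Gfap (-1.01 without mouse 179) and Camk2a (-1.04 without mouse 180) passed it. Depth limits genes under about 1 CPM, where Tnf and other cytokines rest on few counts.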
